A study of Bos taurus with 14 samples.

Results

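The transcripts of 8 genes that carry retinol or act on retinoids, RBP4, TTR, CD36, RDH5, DHRS9, DHRS3, ALDH1A1 and TGM2, were followed in the liver and the blood neutrophils of Holstein cattle (Bos taurus) given β-cryptoxanthin. They were chosen because β-cryptoxanthin, a carotenoid pigment of citrus fruit, can be cleaved to vitamin A. Every array probe whose gene name in the files was one of these symbols, or an older symbol of the same gene, was taken, which gave 8 of the 6693 genes named on the array and 8 of its 15011 probes, with 1 probe and 1 spot for each gene. The cattle were heifers or steers that took β-cryptoxanthin orally on day 0, at a dose of 0.2 mg/kg. The labels do not say which animals were heifers and which were steers, and ages were not given in the sources used here. Liver was taken from 3 animals (58, 61 and 66) and neutrophils from 4 other animals (25, 26, 32 and 34), each on day 0 and on day 7. This gave 14 arrays in 4 groups: liver day 0, liver day 7, neutrophil day 0 and neutrophil day 7. All 4 groups carry the same agent and dose in their labels and no untreated animals were analysed here, so the carotenoid and anything else that changed over the 7 days cannot be told apart. The questions were at what level each gene was measured in each tissue, whether that level differed between the days, and whether the difference between days was alike in both tissues.

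Vitamin A is stored in the liver as retinyl esters and leaves it as retinol bound to the plasma carrier RBP4, which circulates in a complex with transthyretin, the product of TTR. Inside cells, short-chain dehydrogenases oxidise retinol to retinal or reduce retinal back to retinol, and aldehyde dehydrogenases such as ALDH1A1 oxidise retinal further to retinoic acid. Retinoic acid binds nuclear receptors that switch target genes on, and TGM2, the tissue transglutaminase that crosslinks proteins, is a classical target.

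Each gene is read by a single probe of 60 bases, and the identity of a value here is the identity of that probe. The second part of the probe (bases 31 to 60, 5′ to 3′) is given for the 5 genes whose changes are described at length. Capitals mark the polyadenylation hexamers AATAAA and ATTAAA, searched on the strand printed.

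RBP4: ttgacttATTAAAatatgtatagttacccg
TTR: ggcagaaacAATAAAacatgcctATTAAAg
TGM2: cttttgagctacaaacagcgagcactgaaa
RDH5: cctgaccctggtactgcctggtgtgtggca
DHRS9: aatgcatggaaggtggacaggctttcccat

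The RBP4 probe holds the hexamer ATTAAA and the TTR probe holds both hexamers. The other 6 retinoid probes hold neither, and 15.0% of all probes on the array hold at least 1 (12.1% within bases 31 to 60). The DHRS9 probe is called RDHL in the files and the DHRS3 probe SDR1, and both were joined to their current symbols through their RefSeq accessions. The spots lie in different rows of the array: RDH5 in row 13, RBP4 in row 25, DHRS9 in row 86, TTR in row 90, DHRS3 in row 98, CD36 in row 99, ALDH1A1 in row 179 and TGM2 in row 189. On the liver arrays the difference between the days followed the row of the spot at both ends of the array, and the values of the surrounding rows are given beside the genes there.

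All values are log2 of the scanner's processed signal relative to the 75th percentile of the same array, called the level, and a difference between days is a difference of such levels within an animal. The share of spots well above background was 62.7 to 76.7% on liver arrays and 57.1 to 71.6% on neutrophil arrays. The weakest array, from the neutrophils of animal 34 on day 7, had a median processed signal of 48.2 against 100.2 to 162.9 on the other neutrophil arrays. Liver and neutrophil arrays were on separate slides, with day 0 in the first row of arrays and day 7 in the second, so the tissue cannot be told apart from the slide, nor the day from the position on it. Among markers of the sampled cells, 14 of 14 hepatocyte markers with a probe were tested in liver and 14 of 14 neutrophil markers in neutrophils, while 7 of the 14 hepatocyte markers (ALB, APOH, FGG, SERPINA1, AHSG, AMBP and TAT) were not well above background on any neutrophil array. Of the others, APOA1, APOA2 and APOC3 were well above background on all 8 neutrophil arrays, with APOA2 at a mean level of 0.92 on day 0, and FGB, F2, FGA and TF on some. Markers of skeletal muscle summed to 0.0806 to 0.201 times the array's 75th percentile in liver on day 0. On day 7 they summed to 4.64 to 19.2. Of 11 tested markers 10 passed the threshold, beside 3.98% of all probes tested, and TTN was not well above background on any liver array. MYL1, MYH1, TNNC2, CKM and MB were well above background on no day 0 liver array, and ACTA1, TNNT3 and TNNC1 on only some. These entered the fit through day 7, so that they passed is set by the filter and is given as a description. MYH7 (5.16, adjusted p = 0.0186, limma) and ATP2A1 (1.93, 0.0357) were measured on every liver array and passed, and TPM2 did not pass.

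**Figure D1:**
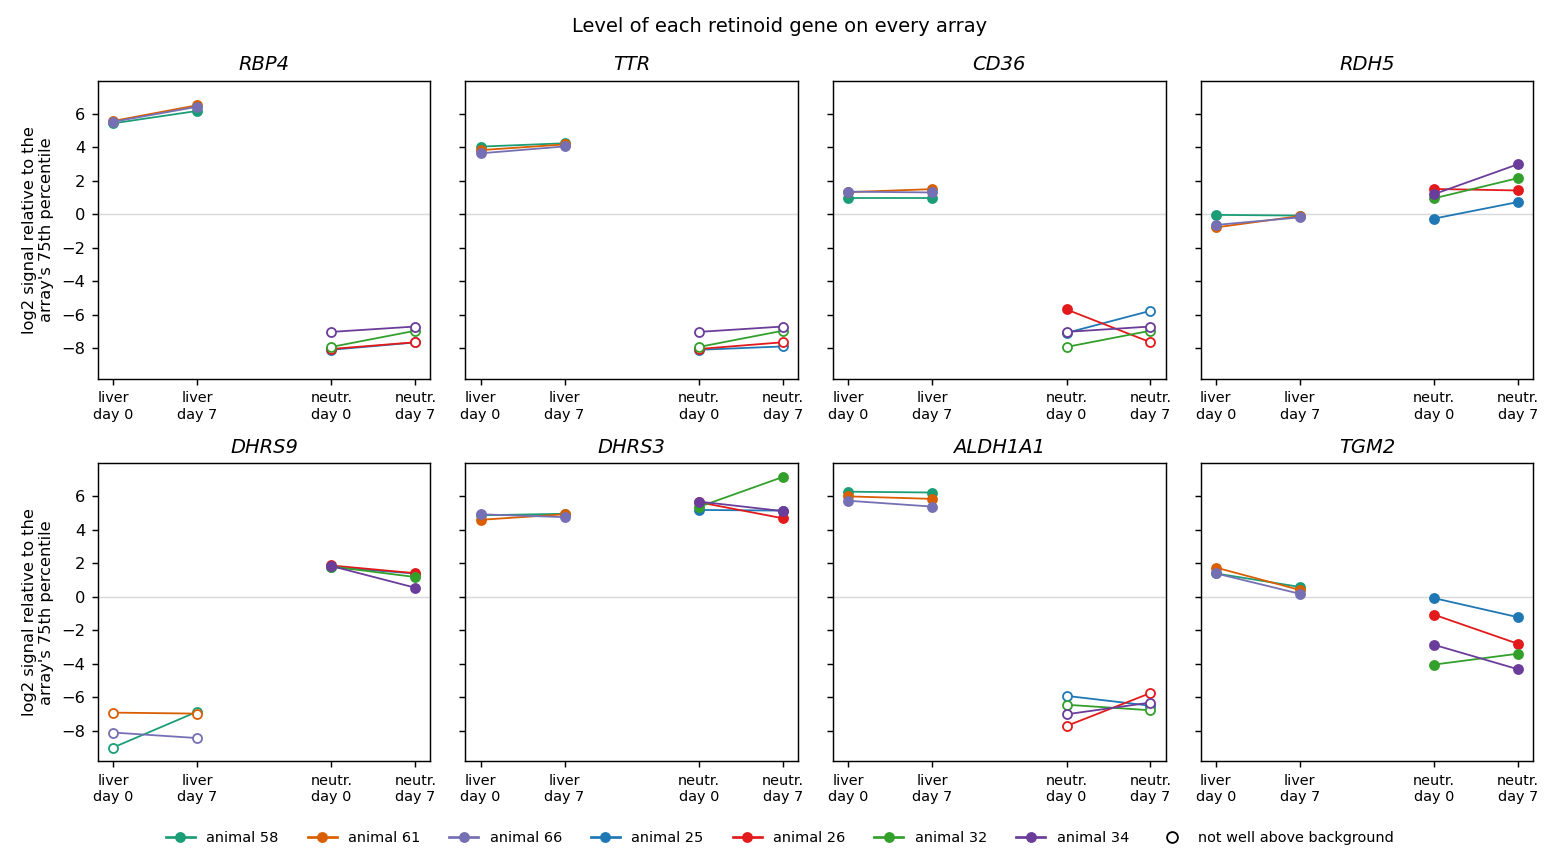
The log2 level of each of the 8 retinoid genes on every array, with a line joining the 2 days of an animal; open points are spots not well above background. RBP4, TTR, ALDH1A1 and CD36 lie high in liver, DHRS9 only in neutrophils, and RDH5, DHRS3 and TGM2 are measured in both tissues.

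Before treatment the genes fell into 3 patterns: 4 genes measured in liver and barely or not in neutrophils, 1 gene measured in neutrophils and not in liver, and 3 genes measured in both. The 3 genes measured on every array of both tissues passed the threshold for a difference on day 0 (limma, Benjamini-Hochberg adjusted p under 0.05), RDH5 and DHRS3 higher in neutrophils and TGM2 lower. The other 5 entered the fit through the tissue in which they are high, so that they passed as well is set by the filter and is given as a description. A difference between tissues was the rule, since 83.1% of the 11494 probes tested passed, 43.5% higher and 39.7% lower in neutrophils (84.0% at an unadjusted p under 0.05), and the count is not particular to these genes. Animals, slide and tissue all change together in this comparison. In whole samples, fewer cells of a type and less RNA per cell cannot be told apart.

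The plasma carriers were liver transcripts. RBP4, the retinol carrier, had levels of 5.43, 5.57 and 5.52 in the livers of animals 58, 61 and 66 on day 0 and was not well above background on any of the 8 neutrophil arrays. Its level in liver was at least 2028-fold higher than in neutrophils, a lower bound set by the dimmest measured spots. No p-value is given beside such a bound, because the filter set the outcome of the test. TTR, the partner that keeps the RBP4 complex in the circulation, had liver levels of 4.04, 3.83 and 3.64. It was likewise not well above background on any neutrophil array, and was at least 637-fold higher in liver. With no well-measured neutrophil spot for either gene, a lack of overlap between the tissues is set by detection.

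CD36, a scavenger receptor that takes up fatty acids and, in the gut, carotenoids, had liver levels of 0.97, 1.32 and 1.35 on day 0. In neutrophils it was well above background on 1 of 4 day 0 arrays, that of animal 26 (level -5.69), and on none of the day 7 arrays. No fold is given, because 3 of the 4 neutrophil spots on day 0 were not well above background.

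ALDH1A1, which makes retinoic acid from retinal, had liver levels of 6.27, 5.99 and 5.73 on day 0. It was not well above background on any neutrophil array, and was at least 2838-fold higher in liver.

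The retinol dehydrogenases were divided between the tissues. DHRS9, which oxidises retinol among other alcohols and steroids, had neutrophil levels of 1.76, 1.86, 1.80 and 1.83 in animals 25, 26, 32 and 34 on day 0, the narrowest spread of the 4 retinoid genes measured in these samples (SD 0.04, n = 4). It was not well above background on any liver array and was at least 355-fold higher in neutrophils. RDH5, best known for oxidising 11-cis-retinol in the eye, was measured on all 14 arrays, with day 0 levels of -0.04, -0.79 and -0.64 in liver and -0.26, 1.51, 0.95 and 1.20 in neutrophils. The neutrophil mean was 1.34 ± 0.41 higher (SE, 2.53-fold, adjusted p = 0.0156), though the neutrophils of animal 25 lay within the range of the livers. Without animal 61 the difference was 1.19 with an adjusted p of 0.0553. The 12 alternatives gave 1.12 to 1.71, with adjusted p from 0.000581 to 0.0553.

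DHRS3, which reduces retinal to retinol and so holds back retinoic acid, had day 0 levels of 4.86, 4.59 and 4.92 in liver and 5.18, 5.64, 5.36 and 5.68 in neutrophils. The groups did not overlap and the neutrophil mean was 0.67 ± 0.18 higher (SE, 1.59-fold, adjusted p = 0.00885). The difference depended on the scaling: it was 0.27 (adjusted p = 0.0908) where normexp correction preceded quantile normalization and 0.28 (adjusted p = 0.148) where quantile normalization alone was used, and the adjusted p ran from 0.00618 to 0.148 over 12 alternatives.

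TGM2 had day 0 levels of 1.39, 1.74 and 1.39 in liver and -0.09, -1.08, -4.06 and -2.88 in neutrophils. No neutrophil sample reached the liver range and the difference of the means, neutrophil minus liver, was -3.53 ± 0.85 (SE, adjusted p = 0.00445). The neutrophils of the 4 animals spread over a far wider range (SD 1.78) than the 3 livers (SD 0.20).

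In liver, RBP4 rose and TGM2 fell between day 0 and day 7, and the other 5 tested genes did not pass the threshold. The fit covered 10930 probes, of which 3.98% passed, 2.67% higher and 1.31% lower on day 7. Of the 8 retinoid genes 7 were tested, since DHRS9 was not measured there, and 3 had an unadjusted p under 0.05 against 17.9% of all probes. The median difference of the 7 genes was 0.08, beside -0.04 over all probes tested.

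RBP4 had levels of 5.43, 5.57 and 5.52 on day 0 and 6.17, 6.51 and 6.42 on day 7 in animals 58, 61 and 66. All 3 day 7 values lay above all 3 day 0 values, and the animals' own differences were 0.74, 0.94 and 0.90. The mean rose by 0.86 ± 0.10 (SE, n = 3 animals, 95% interval 0.59 to 1.13), which is 1.82-fold, with an adjusted p of 0.027 (limma). Its spot in row 25 lies where the probes around it (965 tested probes in rows 17 to 33) had a median difference of 0.11, with 10% of them above 0.5. The 11 spots of GAPDH in those rows had median differences of 0.27, 0.46 and 0.21 in the 3 animals. With the trend along the rows removed from each array, the differences of RBP4 were 0.68, 0.79 and 0.86, with a mean of 0.78 and an adjusted p of 0.0903, where 25 probes passed in all.

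The direction for RBP4 was the same in all 12 alternatives, with values from 0.73 to 0.92, but the call was lost in 6 of them (adjusted p from 0.0129 to 0.156 over the 12). It was lost without animal 58 (0.92, adjusted p = 0.156), without animal 61 (0.82, 0.109) and without animal 66 (0.84, 0.122). Over all probes 0.0%, 1.05% and 1.42% passed in these fits, beside 3.98% in the main fit. The summed level of 13 markers of hepatocytes, the cells that make RBP4, was also higher on day 7. It was 955 to 1140 times the array's 75th percentile on day 0 and 1160 to 1370 on day 7. The sum is not logged, and single markers differed by -0.30 (FGA) to 1.47 (AMBP). Of the 14 tested hepatocyte markers 2 rose, FGB in row 19 and AMBP in row 7 (1 of its day 0 spots was left out as an outlier), and the median difference of the 14 was 0.24. Neither call held with the row trend removed (FGB 0.84, adjusted p = 0.146; AMBP 0.67, adjusted p = 0.246). Their part in the RBP4 result was not tested.

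TTR, the partner of RBP4 in plasma, had levels of 4.04, 3.83 and 3.64 on day 0 and 4.24, 4.17 and 4.05 on day 7. The lowest day 7 value was barely above the highest day 0 value. Each animal was higher on day 7, by 0.20, 0.34 and 0.41, and the mean difference was 0.32 ± 0.10 (SE, 95% interval 0.04 to 0.59). Its unadjusted p was 0.0311 and its adjusted p 0.221 (limma), so it did not pass. Its spot in row 90 lies in the middle of the array, where the 954 probes of the neighbouring rows had a median difference of -0.03. Both carriers were thus higher on day 7 in 3 of 3 animals, and RBP4 alone passed the threshold. The 14 hepatocyte markers tested in liver had a median difference of 0.24, and their part in the TTR difference was not tested.

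TGM2 had levels of 1.39, 1.74 and 1.39 on day 0 and 0.58, 0.40 and 0.17 on day 7 in animals 58, 61 and 66. The groups did not overlap, and the animals' differences were -0.81, -1.33 and -1.22. The mean fell by 1.12 ± 0.14 (SE, n = 3 animals, 95% interval -1.49 to -0.75), to 0.46 of its day 0 level, with an adjusted p of 0.0303 (limma). Its spot in row 189 is among the last rows of the array, and the 655 probes tested in rows 181 to 192 had a median difference of -0.48, with 10% of them below -1.28 and 119 of them past the threshold as lower. The 6 spots of GAPDH in those rows had median differences of -0.76, -0.39 and -1.01 in the same animals. With the row trend removed the differences of TGM2 were -0.16, -0.58 and -0.50, with a mean of -0.41 and an adjusted p of 0.31. TGM2 did not pass once the trend was removed, while it was lower on day 7 in all 3 animals either way.

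The call for TGM2 was lost in 6 of 12 alternatives, with values from -1.28 to -0.41 and adjusted p from 0.0148 to 0.448. Leaving out animal 58, 61 or 66 gave -1.27 (adjusted p = 0.122), -1.01 (0.106) and -1.07 (0.12). Over all probes 0.0%, 1.05% and 1.42% passed in these fits, beside 3.98% in the main fit. TGM2 is also made by macrophages and endothelium. The 8 macrophage markers summed to 53.3 to 63.3 times the array's 75th percentile on day 0 and 60.5 to 63.5 on day 7, and 9 endothelial markers to 5.30 to 6.71 and 5.63 to 6.53, so both sums overlapped. The median difference of the 8 tested endothelial markers was -0.28, with STAB2 in row 188 at -0.58 (0.07 with the row trend removed), PECAM1 in row 99 at -0.49 (-0.45) and ENG in row 3 at 0.88 (-0.24). That of the 8 macrophage markers was -0.09. The part of these cells in the TGM2 result was not tested.

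RDH5 had levels of -0.04, -0.79 and -0.64 in liver on day 0 and -0.08, -0.11 and -0.19 on day 7. The groups overlapped, animal 58 differed by -0.03 and animals 61 and 66 by 0.68 and 0.45. The mean difference was 0.37 ± 0.17 (95% interval -0.07 to 0.81, adjusted p = 0.361). The probes of the surrounding rows 5 to 21 had a median difference of 0.32, nearly that of RDH5 itself, and with the row trend removed the mean was -0.09, on the other side of 0.

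ALDH1A1 had liver levels of 6.27, 5.99 and 5.73 on day 0 and 6.22, 5.84 and 5.38 on day 7. It was lower on day 7 in each animal, by a mean difference of -0.18 ± 0.11 (95% interval -0.47 to 0.11, adjusted p = 0.493), and the groups overlapped. The probes of rows 171 to 187 around it had a median difference of -0.19, and the sign turned with the row trend removed (0.07).

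DHRS3 and CD36 had spots in the middle rows of the array, where the median of the neighbouring probes was -0.03. DHRS3 had liver levels of 4.86, 4.59 and 4.92 on day 0 and 4.95, 4.92 and 4.75 on day 7, with a mean difference of 0.08 ± 0.13 (95% interval -0.27 to 0.43, adjusted p = 0.81). CD36 had levels of 0.97, 1.32 and 1.35 on day 0 and 0.97, 1.5 and 1.3 on day 7, with a mean difference of 0.05 ± 0.11 (95% interval -0.23 to 0.32, adjusted p = 0.865). For both genes the days overlapped, and the intervals leave room for changes of up to about those bounds. CD36 is also made by muscle and adipocytes. Skeletal muscle markers were higher on day 7 in all 3 livers as given above, whereas of the 6 adipocyte markers with a probe ADIPOQ, LEP, LPL and LIPE were not well above background on any liver array. The other 2 were measured, with differences of 0.59 for CIDEC (adjusted p = 0.47) and 1.1 for FABP4 (adjusted p = 0.448), and the 6 summed to 0.208 to 0.564 times the array's 75th percentile on day 0 and 0.208 to 0.738 on day 7. CD36 was within 0.18 of its day 0 level in each animal. The part of muscle and adipocytes in the CD36 values was not tested. A further probe in row 130, described in the files as similar to CD36 and not counted as a CD36 probe, differed by 0.14 in liver (adjusted p = 0.569) and was not well above background on any neutrophil array.

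**Figure D2:**
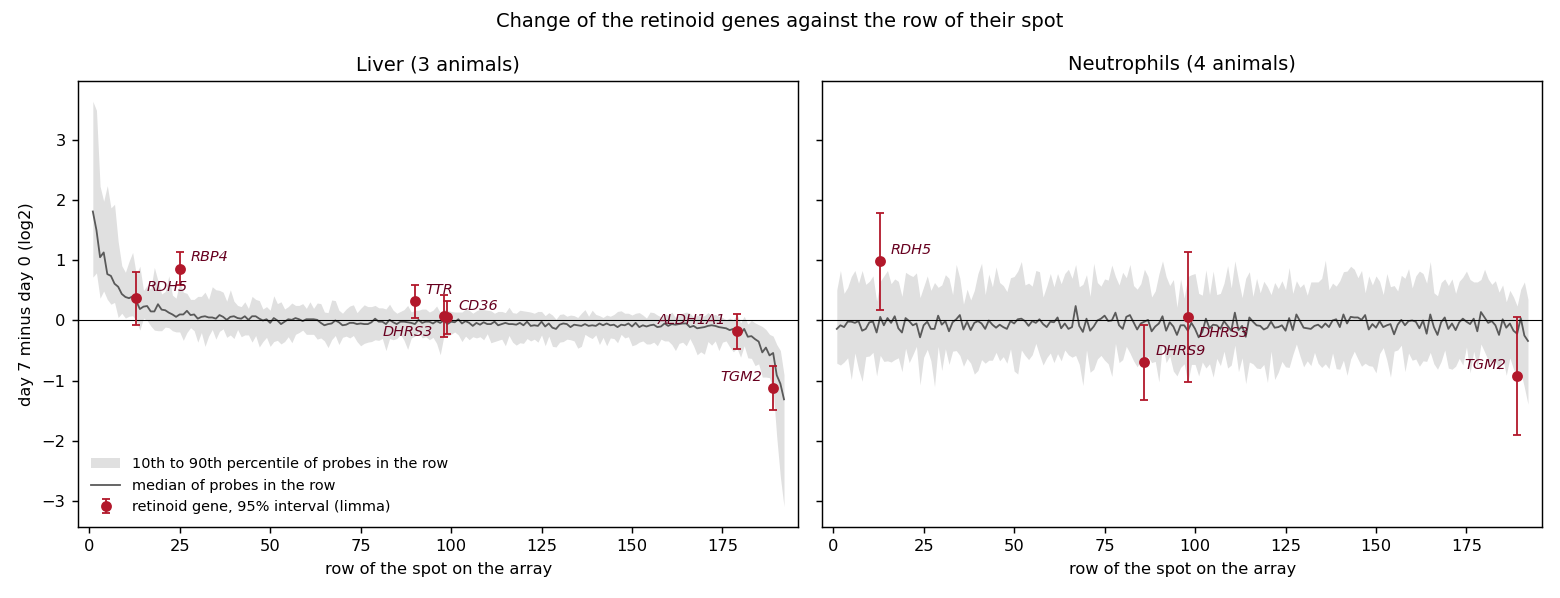
Day 7 minus day 0 difference (log2) of each tested retinoid gene with its 95% interval, against the row of its spot, over the median and the 10th to 90th percentile of all tested probes in each row. In liver the median is high in the first rows, near 0 in the middle and low in the last, with RDH5 on the median, TGM2 below it and RBP4 above it. In neutrophils the median stays near 0 along most rows and is -0.34 in row 192, the last.

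In neutrophils none of the 4 tested retinoid genes passed the threshold between the days, and RDH5, DHRS9 and TGM2 had the larger differences. No probe passed among the 9448 tested (0.0%; limma, smallest adjusted p 0.301), and 13.4% had an unadjusted p under 0.05, or 1267 probes. Of the retinoid genes 2 of 4 did, RDH5 and DHRS9. The median difference of the 4 was -0.32 beside -0.07 over all probes tested. RBP4, TTR and ALDH1A1 were not well above background on either day and CD36 was measured on 1 array, so these 4 were not tested.

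RDH5 had neutrophil levels of -0.26, 1.51, 0.95 and 1.20 on day 0 and 0.73, 1.42, 2.16 and 2.99 on day 7 in animals 25, 26, 32 and 34. It was higher on day 7 in 3 of 4 animals, by 0.99, 1.21 and 1.79, and -0.09 apart in animal 26, while the groups overlapped. The mean difference was 0.98 ± 0.34 (SE, n = 4 animals, 95% interval 0.17 to 1.79), with an unadjusted p of 0.0247 and an adjusted p of 0.333 (limma). The 860 neighbouring probes had a median of -0.05, and the mean was within 0.70 to 1.33 over 13 alternatives. The largest difference came from animal 34, whose day 7 array was the weakest. Without this animal the mean was 0.70 (adjusted p = 0.378, limma).

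DHRS9 had neutrophil levels of 1.76, 1.86, 1.80 and 1.83 on day 0 and 1.38, 1.40, 1.17 and 0.53 on day 7. All 4 animals were lower on day 7, by differences of -0.38, -0.46, -0.63 and -1.30, and the groups did not overlap. The mean difference was -0.69 ± 0.27 (SE, 95% interval -1.32 to -0.07), with an unadjusted p of 0.0349 and an adjusted p of 0.342. The lowest value came from the weakest array, that of animal 34, and without this animal the mean difference was -0.49. The 8 spots of GAPDH in rows 78 to 94 around DHRS9 had median differences of -0.67, 0.13, -0.84 and -1.76 in animals 25, 26, 32 and 34. GAPDH was thus also lower on day 7 in 3 of the 4 animals, and like DHRS9 lowest in animal 34, with similar values around each of the 8 retinoid spots (-0.62 to -0.75 in animal 25 and -1.67 to -1.81 in animal 34). Its part in the DHRS9 and TGM2 differences was not tested.

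TGM2 had neutrophil levels of -0.09, -1.08, -4.06 and -2.88 on day 0 and -1.23, -2.82, -3.41 and -4.34 on day 7. The 4 animals differed more from each other than the days did, and the groups overlapped. TGM2 was lower on day 7 in 3 of 4 animals (-1.14, -1.74 and -1.46) and higher in animal 32 (0.65). The mean difference was -0.92 ± 0.42 (95% interval -1.91 to 0.06, adjusted p = 0.385), or -1.45 without animal 32. The 593 probes tested in rows 181 to 192 had a median of -0.12, and the mean difference of TGM2 was -0.79 with the row trend removed.

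DHRS3 had neutrophil levels of 5.18, 5.64, 5.36 and 5.68 on day 0 and 5.14, 4.68, 7.15 and 5.11 on day 7. The day 7 value of animal 32 stood above all others, and the animals' differences ran both ways (-0.03, -0.95, 1.78 and -0.56). The mean difference was 0.06 ± 0.46 (95% interval -1.02 to 1.14, adjusted p = 0.96), and -0.52 without animal 32.

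The calls in neutrophils depended on how the arrays were weighted. With limma's array weights, which gave the arrays of animal 25 weights of 8.91 and 8.81 and those of animals 32 and 34 weights of 0.329 and 0.242, 4306 probes passed (45.6%). Among them were RDH5 (0.88, adjusted p = 0.00467), TGM2 (-1.17, 0.00143) and DHRS9 (-0.42, 0.0228). Over all alternatives the adjusted p ran from these values up to 0.739 for RDH5 and DHRS9 and 0.741 for TGM2.

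Markers of other blood cells differed between the neutrophil samples. The summed level of 10 T and cytotoxic cell markers was 20.5, 10.7, 14.8 and 36.6 times the array's 75th percentile on day 0 and 59.7, 23.9, 23.0 and 103 on day 7 in animals 25, 26, 32 and 34, and that of 4 B and plasma cell markers 2.58, 1.96, 2.30 and 3.62 and then 5.78, 4.0, 4.07 and 7.84. Both sums were higher on day 7 in 4 of 4 animals, with every marker of both lists well above background on at least 1 array. The sums are not logged, and GZMB had the highest mean level of the T and cytotoxic list (3.78 on day 0 and 5.08 on day 7). Its single markers differed by -0.45 (LCK) to 1.31 (GZMB), with a median of 0.40, and LCK and NKG7 (-0.04) had lower means on day 7. No marker of either list passed the threshold. The 14 neutrophil markers summed to 938 to 1110 on day 0 and 754 to 1550 on day 7, and the 8 monocyte and macrophage markers to 17.7 to 26.5 and 16.2 to 25.4. The 2 eosinophil and basophil markers with a probe summed to 1.15 to 3.72 on day 0 and to 0.536 to 0.776 on day 7, without overlap. This sum was nearly that of CCR3 alone, with mean levels of 0.86 and -0.69 (adjusted p = 0.301, limma). The other marker, HDC, had mean levels of -5.82 and -5.87 and was not tested. The part of these cells in the differences of RDH5, DHRS9, DHRS3 and TGM2 was not tested.

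Whether the tissues differed in their change could be asked of the 3 genes measured in both. Of 8838 probes tested for this difference 1.15% passed, and none of the 3 genes did; at an unadjusted p under 0.05 the count was 0 of 3 against 13.5% of all probes. The change in neutrophils minus that in liver was 0.61 ± 0.44 for RDH5 (SE, 95% interval -0.40 to 1.62, adjusted p = 0.587, limma). It moved to 1.08 with the row trend removed (adjusted p = 0.438, unadjusted 0.0383), to 0.96 without animal 26, to 0.41 without animal 58 and to 0.34 without animal 34, with adjusted p from 0.353 to 0.869 over 14 alternatives. For DHRS3 it was -0.02 ± 0.60 (-1.39 to 1.34, adjusted p = 0.989). For TGM2 it was 0.19 ± 0.55 (-1.05 to 1.44, adjusted p = 0.898). TGM2 thus had a lower mean on day 7 in both tissues, by -1.12 and -0.92, but the interval of the difference is wide enough to hold unequal changes. With the row trend removed, which reduces the liver value, the difference for TGM2 was -0.37.

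**Figure D3:**
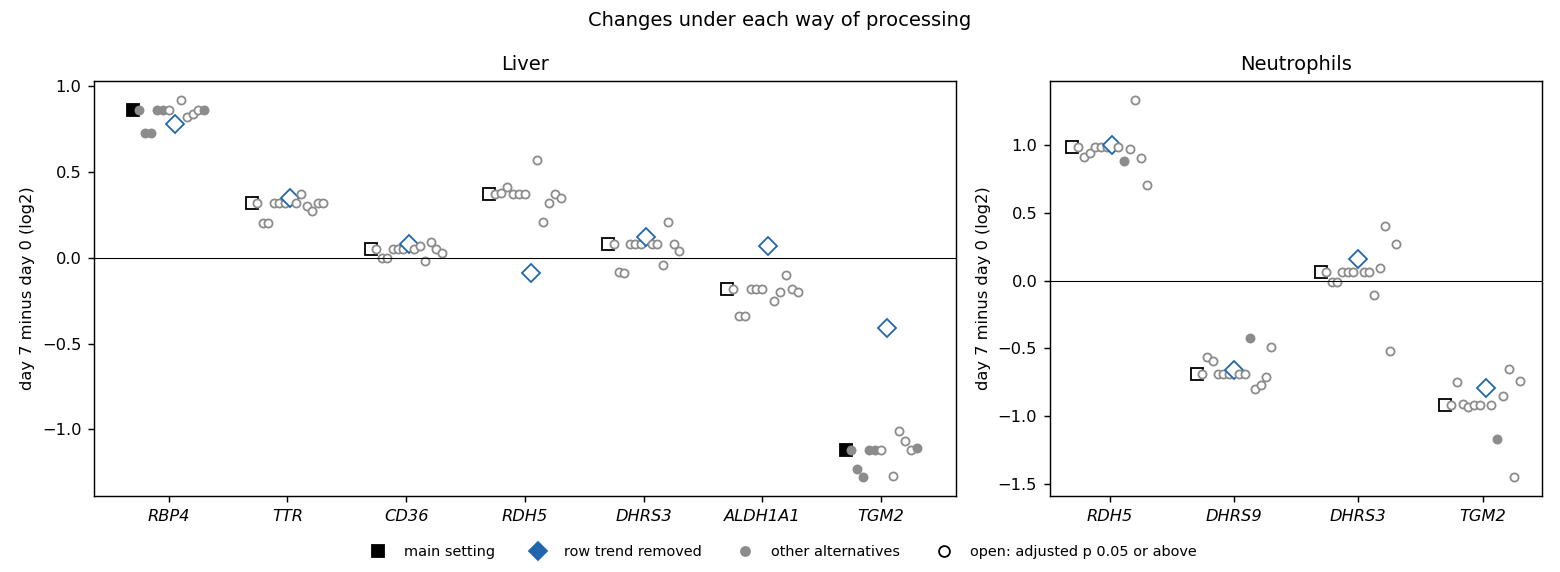
Day 7 minus day 0 difference (log2) of each tested retinoid gene under the main setting (squares), with the row trend removed (diamonds) and under the other alternatives (circles); filled symbols have an adjusted p under 0.05. In liver RBP4 stays between 0.73 and 0.92 while TGM2 moves from -1.12 to -0.41 when the row trend is removed; in neutrophils the filled symbols are those with array weights.

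The probes whose levels followed these genes most closely were found by Pearson correlation within a tissue, as a description over arrays that share slides and animals. Over the 6 liver arrays RBP4 was followed most closely by PDCD10 (r = 0.991, row 9), TSSC4 (0.989, row 49) and CD59 (0.985, row 12), of 4643 candidate probes with 1 gene symbol. TGM2 was followed by PHTF2 (0.986, row 183), VAV1 (0.984, row 185) and TENT5B (0.983, row 185), all from the last rows of the array like TGM2 itself. TTR was followed by MADCAM1 (0.992), SUCLG1 (0.989) and ELOB (0.988). Over the 8 neutrophil arrays, with 4093 candidates, DHRS9 was followed by NINJ1 (0.98), FURIN (0.978) and TMX2 (0.974), and RDH5 by SST (0.996), MOGS (0.996) and REPIN1 (0.994).

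The rest of the pathway was taken from 6 lists holding 79 genes besides the 8, of which 45 had a probe with that symbol. In liver 31 of the 45 were tested; none rose and 1 fell, RARG, the γ receptor of retinoic acid (-0.93 ± 0.14, SE, adjusted p = 0.042, limma). The call for RARG was lost in 8 of 13 alternatives, among them no block (adjusted p = 0.408), the row trend removed (-0.89, 0.119) and each animal left out (0.226, 0.0682 and 0.157 without animals 58, 61 and 66). Over all probes 0.0%, 1.05% and 1.42% passed with these animals left out. The values of RARG ran from -1.07 to -0.66 and its adjusted p from 0.0221 to 0.435. In neutrophils 23 were tested and none passed, where RARG differed by -0.76 (adjusted p = 0.392). The median difference over these genes was 0.07 in liver and -0.16 in neutrophils, beside -0.04 and -0.07 over all probes.

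Among genes of carotenoid uptake and cleavage, BCO1, the enzyme that cleaves provitamin A carotenoids, was not well above background in either tissue on any array. SCARB1, a lipoprotein receptor that also takes up carotenoids, had the smallest p of its list in liver (0.58 ± 0.12, adjusted p = 0.0918), followed by LRP1 (-0.22, 0.353). None of the 4 genes tested in liver and the 3 tested in neutrophils passed. Among genes of retinol binding, storage and release, none of 4 passed in liver and none of 4 in neutrophils. LRAT, which esterifies retinol for storage, differed by -0.03 in liver. In neutrophils DGAT1, an acyltransferase, differed by -0.99 (adjusted p = 0.373), the esterase CES1 by 0.75 (0.376) and the lipase LIPE by -0.78 (0.397).

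Among the other retinol and retinal oxidoreductases none of 6 passed in liver and none of 4 in neutrophils. The smallest p values were those of ADH1C, an alcohol dehydrogenase (0.50 ± 0.17 in liver, adjusted p = 0.235), RDH14 (0.79 ± 0.33 in neutrophils, 0.364) and DHRS4 (0.29 ± 0.11 in liver, 0.29). Among genes of retinoic acid synthesis, binding and breakdown none of 6 and none of 4 passed. FABP5, which carries retinoic acid and fatty acids in the cell, differed by 1.13 ± 0.26 in neutrophils (adjusted p = 0.301), AOX1, aldehyde oxidase, by 0.35 ± 0.12 in liver (0.242) and CYP1A1 by 0.27 in liver (0.334). CYP26A1, which breaks retinoic acid down and is itself induced by it, differed by -0.30 ± 0.16 in liver (adjusted p = 0.445).

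Of the genes known to respond to retinoic acid none of 9 passed in liver and none of 4 in neutrophils. RARRES1, named for its response to retinoids, differed by 1.25 ± 0.22 in liver (adjusted p = 0.0641), with its spot in row 6, and by 0.36 with the row trend removed. CD38, an ectoenzyme, differed by -0.46 ± 0.10 in liver (adjusted p = 0.0896), and PCK1, which catalyses a step of gluconeogenesis, by 1.27 ± 0.44 in neutrophils (0.33) and 0.08 in liver. These retinoic acid targets lay on both sides of 0 in each tissue.

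**Figure D4:**
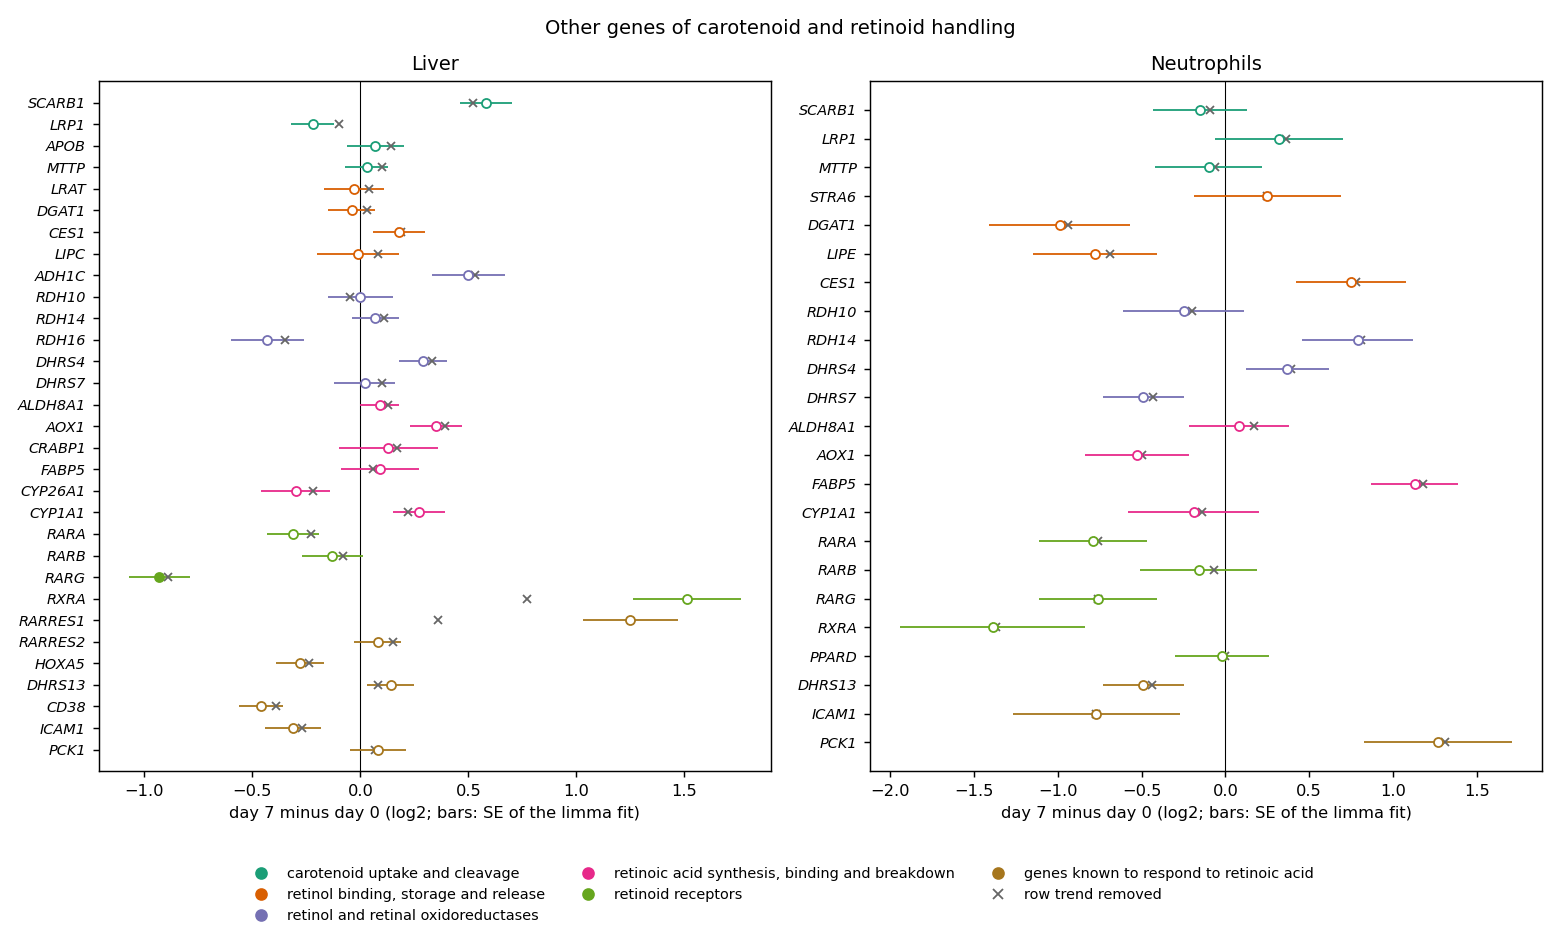
Day 7 minus day 0 difference (log2) of the other genes of the pathway in liver (31 genes) and neutrophils (23 genes), coloured by list, with the SE of the limma fit; crosses give the value with the row trend removed. RARG in liver is the 1 filled symbol, with an adjusted p under 0.05, and RARRES1 and RXRA in liver move most when the row trend is removed.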

How the data were processed

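Single-colour (Cy3) arrays of a bovine design were read from the deposited scanner files. The intensities are the deposited processed signals of Agilent Feature Extraction (9.5.1.1 per the file headers, 9.5 per the submitters' processing notes), which had spatial detrending and surrogates for low signals switched on, per the file headers. The authors' deposited table holds log2 values that matched log2 of these signals up to a constant per array. The scores (flags, grid positions) are other deposited columns. The sources used here do not describe how the liver was sampled or the neutrophils isolated, and a genome build was not given in them. No depth applies to arrays, and their number (3 and 4 pairs) limits the precision.

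Each signal was divided by the 75th percentile of its array and log2 was taken. Control and outlier spots were left out. Tests covered probes that were well above background throughout at least 1 of the groups compared. Comparisons used limma 3.58.1 (R 4.3.3, lmFit and eBayes, checked on simulated data) over all probes, two-sided, with Benjamini-Hochberg adjustment and a threshold of 0.05. Errors are standard errors of these fits. The animal was a block in comparisons of days, because the labels name the same animal on both days; paired deviations from the group means correlated at 0.65, 0.32 and 0.61 in liver and 0.61, 0.36, 0.03 and 0.24 in neutrophils. A gene not well above background in a group has a bound there: on each array the larger of its own signal and the lowest well-measured signal was used. For other genes with several probes the brightest was used. Names came from the files and a RefSeq gene table (ARS-UCD2.0), used for names alone.

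The members, gene lists, tests and alternatives were chosen with earlier results of these data known. All members were named, and of the listed genes those past the threshold or up to 3 per list with the smallest p. Of the listed genes, 1 was not analysed here. Neighbours of a spot are the probes within 8 rows. The row trend was a loess fit (span 0.3) per array. Other alternatives were no block, normexp (offset 50) with quantile normalization, quantile normalization, the authors' values, other filters, the inner rows alone, 1 joint fit over all arrays, each animal left out, an unadjusted threshold and array weights.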

Additional observations from a re-analysis of the deposited data

How the results depend on the processing

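With the animal as a replicate block removed, all tested genes of the 8 kept their direction and side of the threshold: RBP4 at 0.86 and TGM2 at -1.12 in liver passed, and none passed in neutrophils; 210 probes passed in liver in place of 435, and RARG (adjusted p = 0.408) did not. The 2 calls in liver became 0 without the filter on dim probes, with the row trend removed, in the inner rows alone (3 genes tested, neither RBP4 nor TGM2 among them), in 1 fit over all arrays, and with each animal left out (0 to 0). Calls over all probes fell in the same fits. They were 0 of 15011 without the filter, 25 of 10930 with the row trend removed and 0 of 6454 in the inner rows. In the joint fit 1.62% of 10930 passed. Without animals 58, 61 and 66 it was 0 of 11136, 1.05% of 11026 and 1.42% of 11169. The 0 calls in neutrophils became 3 with array weights and 2 at an unadjusted p under 0.05. All 8 genes passed between tissues on day 0, as did 83.1% of all probes. RBP4, TTR, CD36, ALDH1A1 and DHRS9 had entered through the tissue in which they are high, so their calls are set by the filter. Where only probes measured on every array were tested, the 3 genes left (RDH5, DHRS3 and TGM2) passed. Over 12 alternatives the call was lost in 2 for DHRS3 and in 1 for RDH5.

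Directions that turned belonged to differences that did not pass the threshold in the main setting. In liver DHRS3 was -0.08 with normexp and quantile normalization, -0.09 with quantile normalization and -0.04 to 0.21 with an animal left out; CD36 was -0.02 to 0.09 with an animal left out; RDH5 was -0.09 and ALDH1A1 0.07 with the row trend removed. In neutrophils DHRS3 was -0.01 under both quantile settings, -0.11 with array weights and -0.52 to 0.40 with an animal left out. The difference between tissues for DHRS3 was 0.07 under both quantile settings, 0.04 with the row trend removed and -0.60 to 0.31 with an animal left out; for RDH5 it was 0.34 to 0.96 with an animal left out and 1.08 with the row trend removed, in the same direction; for TGM2 it was -0.37 with the row trend removed and -0.33 to 0.47 with an animal left out. The cause of these shifts was not tested. With 2 and 3 residual degrees of freedom and 1 probe a gene, the intervals are wide, and each of the 8 genes rests on 1 probe counted as its own.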
